A study of Mus musculus with 3 samples.

Results

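Dermal fibrogenic nuclei of the mouse forelimb at embryonic day (E) 14.5 were taken here as the nuclei with the most accessible chromatin at 9 loci, Irx1, Irx2, Crabp1, En1, Col7a1, Nkd2, Rspo1, Axin2 and Lef1. For each nucleus with at least 8000 counts, the counts in peaks over these gene bodies and the 2 kb upstream of them (36 peaks) were divided by its total, and the highest-scoring 10% were kept. This gave 1067 gated nuclei of 10666 past the depth minimum and of 20023 in the library, and the 9599 others past the depth minimum are called the rest. The same rule gave 1221 nuclei at E16.5 and 334 at E12.5, and the 3 libraries held 42365 nuclei in all. The members were selected on measured accessibility, so their height at the 9 loci is a description and not a result. The readouts are each locus when it was left out of the gate, and loci outside the gate.

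The data were single-nucleus assays for transposase-accessible chromatin, in which a transposase cuts open chromatin and the cut sites are counted in called peaks (open chromatin regions, OCRs). The nuclei came from tdTomato-positive mesenchymal progenitors (MPs) of C57BL/6J embryos of the genotype Hic1CreERT2/CreERT2;Rosa26LSLtdTomato/tdTomato, with 1 library per stage. At every stage both Hic1 alleles carried CreERT2, and the dams had been given 7.5 mg tamoxifen when the embryos were at E10, so the reporter marks cells that used the Hic1 promoter at that time and their descendants. Whole forelimbs were used at E12.5, digested with Dispase, and at E14.5, digested with Collagenase A, Pronase and DNase. At E16.5 the tissue was a segment around the elbow, digested as at E14.5, and cells with CD45, CD117, CD31, CD11b, F4/80 or Ter119 had been removed by sorting. How many embryos made up a library is not given in the sources used here. With 1 library per stage no test was possible, nuclei are not replicates of a condition, and the intervals below are exact 95% intervals that cover counting error only.

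Dermal fibroblasts make the collagen-rich bed of the skin, with a papillary layer under the epidermis and a reticular layer beneath it. Canonical Wnt signalling, in which beta-catenin acts with TCF/LEF factors at target genes such as Axin2 and Sp5, marks early dermal precursors, and TWIST2 (Dermo1) is a transcription factor of the embryonic dermis. Among the gate genes, Axin2 and Nkd2 encode feedback inhibitors of the Wnt pathway, Rspo1 a secreted Wnt amplifier and Lef1 a DNA-binding partner of beta-catenin. Irx1, Irx2 and En1 encode homeobox factors, Crabp1 a carrier of retinoic acid, and Col7a1 the collagen of the anchoring fibrils that hold the epidermis to the dermis.

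Outside the gate, the gated nuclei had more accessible chromatin at some loci of the embryonic dermis and of Wnt signalling (Twist2, Tcf7, Sp5, Kremen1, Irx3 and Irx5) and at several Hox genes. Most loci read for the dermis and for Wnt signalling were not counted as higher. Those counted were 5 of 32 Wnt pathway, 5 of 21 reticular and 1 of 23 papillary dermis genes, against 1.34% of all genes. Outside promoters, the OCRs that were higher in them held TWIST-type and TCF/LEF-type strings more often than the OCRs read as a whole. At promoters the TCF/LEF-type string was not more frequent in the higher OCRs. Loci of the fibrogenic list went both ways, with less at C1qtnf3 and Fap and more at Col14a1, and the tendon loci Htra3 and Tnc had less. Differences were small for whole genes, from -0.91 to 0.88 on the log2 scale among genes with at least 20 CPM, and larger for single distal OCRs, from -2.27 to 1.78 among those named. Sequences of 2 of those OCRs and of 1 promoter are shown here because they hold the letters whose frequency is described below. Capitals mark the TWIST E-box (CAGATG) and the TCF/LEF string (CTTTGAT), each on either strand. The OCRs are the central 300 bases of the called peak, given 5′ to 3′ on the plus strand of GRCm38.

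The intronic OCR of Cep112, a centrosomal protein, at chr11:108621086-108621385, held both kinds of string.
Cep112: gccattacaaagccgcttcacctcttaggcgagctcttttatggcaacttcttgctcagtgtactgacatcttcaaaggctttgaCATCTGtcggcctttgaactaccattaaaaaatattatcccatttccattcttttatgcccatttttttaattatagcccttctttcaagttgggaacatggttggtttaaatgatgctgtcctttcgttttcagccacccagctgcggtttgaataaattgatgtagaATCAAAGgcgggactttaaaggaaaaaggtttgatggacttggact
The intergenic OCR nearest Rxrg, a retinoid X receptor, at chr1:167589192-167589491, held 2 TWIST E-boxes.
Rxrg: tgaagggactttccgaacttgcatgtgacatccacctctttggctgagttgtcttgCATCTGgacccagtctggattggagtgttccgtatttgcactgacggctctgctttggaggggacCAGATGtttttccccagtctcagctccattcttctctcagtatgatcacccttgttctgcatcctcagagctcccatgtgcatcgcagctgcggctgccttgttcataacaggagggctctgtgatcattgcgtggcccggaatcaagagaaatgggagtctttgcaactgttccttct
The 250 bases before the start of Sp5, a Wnt target gene, at chr2:70474673-70474922 on the plus strand, are from RefSeq (GRCm38.p6) and held 1 TCF/LEF string.
Sp5: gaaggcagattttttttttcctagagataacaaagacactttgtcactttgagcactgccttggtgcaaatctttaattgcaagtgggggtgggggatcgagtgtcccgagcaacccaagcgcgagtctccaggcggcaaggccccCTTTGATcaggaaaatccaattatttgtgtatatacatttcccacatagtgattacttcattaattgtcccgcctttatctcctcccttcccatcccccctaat

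The gated nuclei scored from 8.78 to 27.3 gate counts per 10000 counts, with a median of 10.5 against 4.03 in the rest. The last nucleus inside the gate had 25 gate counts of 28482, and the first one outside had 11 of 12535, so no gap in the scores separated the groups. A gated nucleus held a median of 14 gate counts (8 to 48) over a median of 4 of the 9 loci, against 6 counts over 2 loci in the rest, where 639 nuclei (6.66%) had none. Since a fragment gives up to 2 counts, the choice of any 1 nucleus rests on few fragments. When the nuclei were thinned to equal depth before scoring, 637 of the 1067 (59.7%) were chosen again. The gated nuclei were shallower than the rest, with a median of 11650 against 13593 counts, and had 58.1% against 55.8% of their counts in promoters.

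Axin2 gave the most gate counts (26.8% of those in the gated nuclei), followed by Lef1 (19.1%) and Irx2 (12.97%), and Col7a1 the fewest (1.495%). Accessibility is given as counts per 1000000 in autosomal peaks outside the gate loci (CPM). Axin2 (chr11:108920349-108950783, plus strand) was at 302 CPM in the gated nuclei and 113 CPM in the rest. Lef1 (chr3:131110471-131224356, plus strand) was at 216 and 82.1 CPM, and Rspo1 (chr4:124986430-125009099, plus strand) at 55.02 and 16.9 CPM. These differences follow from the rule, and so do those of Irx1 (107 and 36.2 CPM), Irx2 (146 and 51.8), Crabp1 (76.9 and 34.1), En1 (80.6 and 31.7), Col7a1 (16.9 and 5.35) and Nkd2 (128 and 52.4).

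Each locus was therefore read in nuclei chosen by the other 8. All 9 left-out loci were higher in the nuclei chosen by the others, with every counting interval above 0. Col7a1 (chr9:108953586-108984875, plus strand), read in a single peak, differed most, at 11.9 against 5.83 CPM, a log2 ratio of 1.04 (0.68 to 1.38). Rspo1 was at 30.5 against 19.3 CPM, a log2 ratio of 0.66 (0.45 to 0.87), and Irx1 (chr13:71957921-71963723, minus strand) was at 63.4 against 40.4 CPM, a log2 ratio of 0.65 (0.50 to 0.80). Thus an anchoring fibril gene, a Wnt amplifier and a homeobox gene led the left-out readings. Intermediate log2 ratios were those of Irx2, 0.48 (0.35 to 0.61), and En1, 0.39 (0.22 to 0.56). Lef1 was at 0.34 (0.24 to 0.45) and Axin2 at 0.32 (0.23 to 0.41). The lowest were Crabp1, 0.19 (0.01 to 0.36), and Nkd2, 0.18 (0.04 to 0.32).

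Irx1, Irx2 and Nkd2 lie within a few megabases of each other on chromosome 13. With all 3 left out of the gate, Irx1 was still higher in the chosen nuclei, at a log2 ratio of 0.51 (0.36 to 0.66), and Irx2 at 0.32 (0.19 to 0.45). The ratio of Nkd2 was then 0.04 (-0.10 to 0.19), so its left-out difference was not detectable without its chromosome 13 neighbours in the gate. At E14.5 the peaks of chromosome 13 between 100 kb and 1 Mb from these loci, which the rule did not read, were also higher in the gated nuclei, at a log2 ratio of 0.17 (0.14 to 0.20), while those at 5 to 20 Mb were at 0.01 (-0.00 to 0.02).

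At E16.5, 8 of the 9 left-out loci had intervals above 0 in the nuclei chosen by the others, with Col7a1 at 1.05 (0.91 to 1.19), Rspo1 at 0.97 (0.85 to 1.08) and Irx1 at 0.78 (0.68 to 0.87). Nkd2 was the exception, at -0.07 (-0.18 to 0.04). At E12.5 the intervals were above 0 for Irx1, 0.48 (0.22 to 0.74), Irx2, 0.42 (0.15 to 0.67), and Nkd2, 0.29 (0.09 to 0.49). These are the 3 neighbours on chromosome 13, whose peaks at 5 to 20 Mb from the loci were also higher at E12.5, at 0.13 (0.11 to 0.14). The other 6 had intervals that spanned 0 at E12.5, among them Col7a1, -0.11 (-0.77 to 0.53), and Lef1, -0.01 (-0.18 to 0.16). The plot of left-out loci by stage sets these readings side by side. Stage cannot be told apart from library, nor from the tissue segment at E16.5 or the digestion at E12.5, and the difference between stages was not tested.

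**Figure D1:**
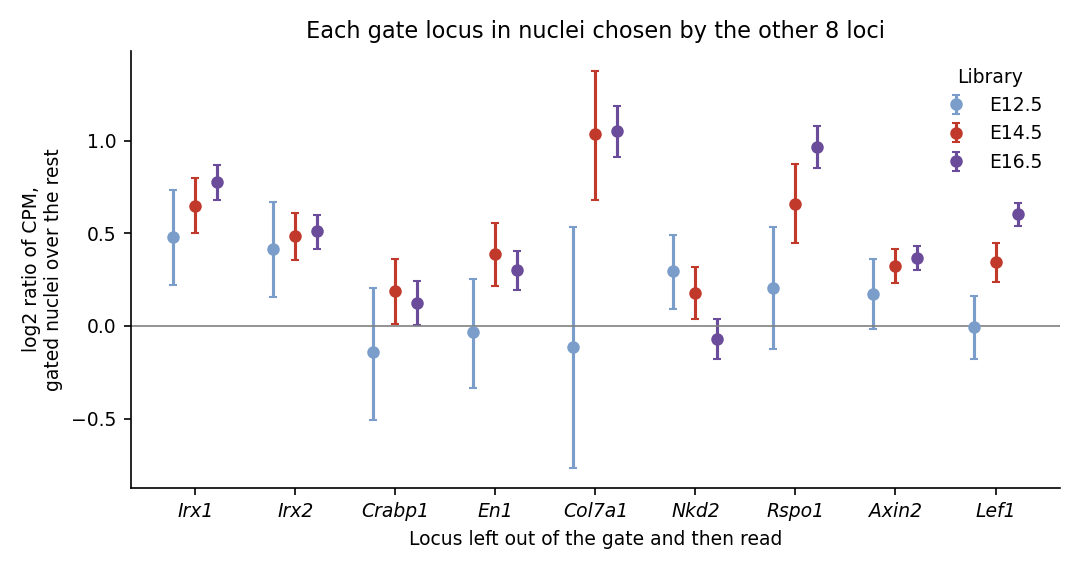
Log2 ratio of CPM (vertical) at each gate locus (horizontal) in nuclei chosen by the other 8 loci over the remaining nuclei past the depth minimum, in the E12.5, E14.5 and E16.5 libraries. Bars are exact 95% counting intervals. At E14.5 all 9 points and their intervals lie above 0, with Col7a1 at 1.04, and at E12.5 only those of Irx1, Irx2 and Nkd2 do.

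Outside the gate, 12934 genes with at least 20 CPM were read, none within 100 kb of a gate gene. A gene was counted as higher or lower when its log2 ratio of CPM, gated nuclei over the rest, was at least 0.32 in size (the fold in what follows). In the gated nuclei 173 genes were higher (1.34%) and 206 lower (1.59%), and the median log2 ratio over all genes was 0.04. The counting interval of each of these genes lay on 1 side of 0. Of them, 165 and 199 were over 5 Mb from any gate locus or on a chromosome without one. The higher genes made up 45.6% of the differences, 69.9% when the readout was held to promoter peaks (160 higher and 69 lower) and 23.9% when ratios were centred on the all-gene median (99 and 316). Lower genes were thus the majority under both scalings and the minority at promoter peaks. The counts also moved with the gate. They were 57 higher and 83 lower when nuclei were thinned before scoring, 526 and 486 with the highest-scoring 5%, and 55 and 69 with the highest-scoring 20%.

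Genes of the reticular dermis list were higher in 5 of 21 cases and lower in none, with a median log2 ratio of 0.19. Over all genes 1.34% were higher. Those 5 were Sp5, Irx3, Tcf7, Twist2 and Irx5, all transcription factors. Sp5 was at 45.1 CPM in the gated nuclei and 31.2 CPM in the rest, a log2 ratio of 0.53 (0.36 to 0.70). Tcf7, a DNA-binding partner of beta-catenin, was at 57.4 and 41.5 CPM, a log2 ratio of 0.47 (0.32 to 0.62). Twist2 was at 106 and 78.7 CPM, 0.43 (0.32 to 0.54). The Iroquois homeobox genes of chromosome 8, which share no chromosome with a gate gene, moved the same way. Irx3 was at 56.1 and 39.2 CPM, 0.52 (0.36 to 0.67), and Irx5 at 159 and 126 CPM, 0.33 (0.24 to 0.42). The remaining genes of this list stayed within the fold. The count of 5 was 3 when nuclei were thinned before scoring or the chromosome 13 loci were left out of the gate.

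Among the 23 papillary dermis genes read, 1 was higher and none lower, and the median was 0.12. With 1.34% of all genes higher, a count of 1 among 23 does not set this list apart. The higher one was Sox2, a factor of the dermal papilla, at 28.6 against 22.7 CPM, a log2 ratio of 0.34 (0.12 to 0.55). Lrig1, a cell surface marker of papillary fibroblast precursors, was at 188 and 189 CPM, -0.01 (-0.09 to 0.08). Both dermal lists were taken from the RNA data of the study and were chosen with earlier results known, so their direction is a description. Their medians were above the 0.04 of all genes, with that of the reticular list the higher of the pair. This was not particular to them, since the perineural (0.23), cell cycle (0.18) and hedgehog (0.12) lists were also above it. Other lists, given below, had medians under 0.

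In the Wnt pathway 5 of 32 genes were higher and none lower, against 1.34% higher over all genes, and the median was 0.08. Besides Sp5 and Tcf7 these were Kremen1, a receptor for the DKK inhibitors, at 134 against 93.2 CPM, a log2 ratio of 0.52 (0.42 to 0.62), the ligand gene Wnt10b, 0.38 (0.18 to 0.59), and the receptor gene Fzd10, 0.37 (0.23 to 0.51). Targets, a receptor, an inhibitor receptor and a ligand were thus each represented. The ligand gene Wnt11 fell just short of the fold, at 139 against 112 CPM, 0.32 (0.22 to 0.41). Most of the pathway stayed within the fold. The count of 5 was 2 when Axin2 was left out of the gate (median 0.03), 2 when nuclei were thinned before scoring and 3 against nuclei matched in promoter share (median 0.04).

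Of 21 dermal and limb transcription factors 4 were higher and none lower, with a median of 0.12. Over all genes 1.34% were higher and 1.59% lower, which applies to each list of this paragraph. Beside Twist2 these were Msx1, a homeobox gene that answers BMP signals, 0.44 (0.28 to 0.59), Tfap2a, an AP-2 factor, 0.42 (0.30 to 0.53), and Zic1, a zinc finger factor, 0.34 (0.13 to 0.54). Ebf2, a helix-loop-helix factor of mesenchyme, was the lowest of the list at 347 against 420 CPM, -0.27 (-0.34 to -0.22), within the fold. Of 19 BMP genes Msx1 was higher and the ligand gene Bmp5 lower, -0.36 (-0.58 to -0.14). None of 10 hedgehog genes passed the fold, although 9 of them were above 0 (median 0.12), and none of 11 retinoic acid genes did. In that list Cyp26b1, which breaks down retinoic acid, was at 123 against 138 CPM.

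Genes of the dermal-epidermal junction, the layer that COL7A1 anchors, were higher in 0 of 19 cases and lower in 1, with a median of -0.01. The lower one was Col18a1, a basement membrane collagen, -0.34 (-0.48 to -0.20). The highest of the list, the laminin gene Lama1, was at 0.25. Over all genes 1.34% were higher and 1.59% lower, and at such shares counts of 0 and 1 among 19 do not set these genes apart. The left-out Col7a1 difference had no counterpart past the fold upwards among them.

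The fibrogenic, tenogenic, chondrogenic and pericyte lists had medians below 0, from -0.13 to -0.07, while the 5 perineural genes were all above 0 (median 0.23) and within the fold. Of 9 fibrogenic genes 1 was higher and 2 lower, where over all genes 1.34% were higher and 1.59% lower. C1qtnf3, a secreted relative of adiponectin, was at 11.7 CPM in the gated nuclei and 21.9 CPM in the rest, a log2 ratio of -0.91 (-1.23 to -0.58). Fap, the fibroblast activation protein, was at 42.0 and 61.3 CPM, -0.55 (-0.72 to -0.37). Col14a1, a fibril-associated collagen, went the other way at 150 and 114 CPM, 0.40 (0.30 to 0.49), as did Dpt, a dermal matrix protein under the level limit, at 19.5 and 13.3 CPM, 0.55 (0.28 to 0.81). Of 8 tenogenic genes 2 were lower, the secreted protease gene Htra3, -0.47 (-0.67 to -0.28), and the matrix gene Tnc, -0.34 (-0.48 to -0.21). None of 11 chondrogenic genes passed the fold and 1, Col9a1, was above 0, with a list median of -0.09. The 9 MP genes also stayed within the fold, from -0.07 for Osr1 to 0.27 for Snai1, and Hic1 itself, the gene that drove the Cre, was at 102 and 95.6 CPM, 0.09 (-0.02 to 0.21).

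**Figure D2:**
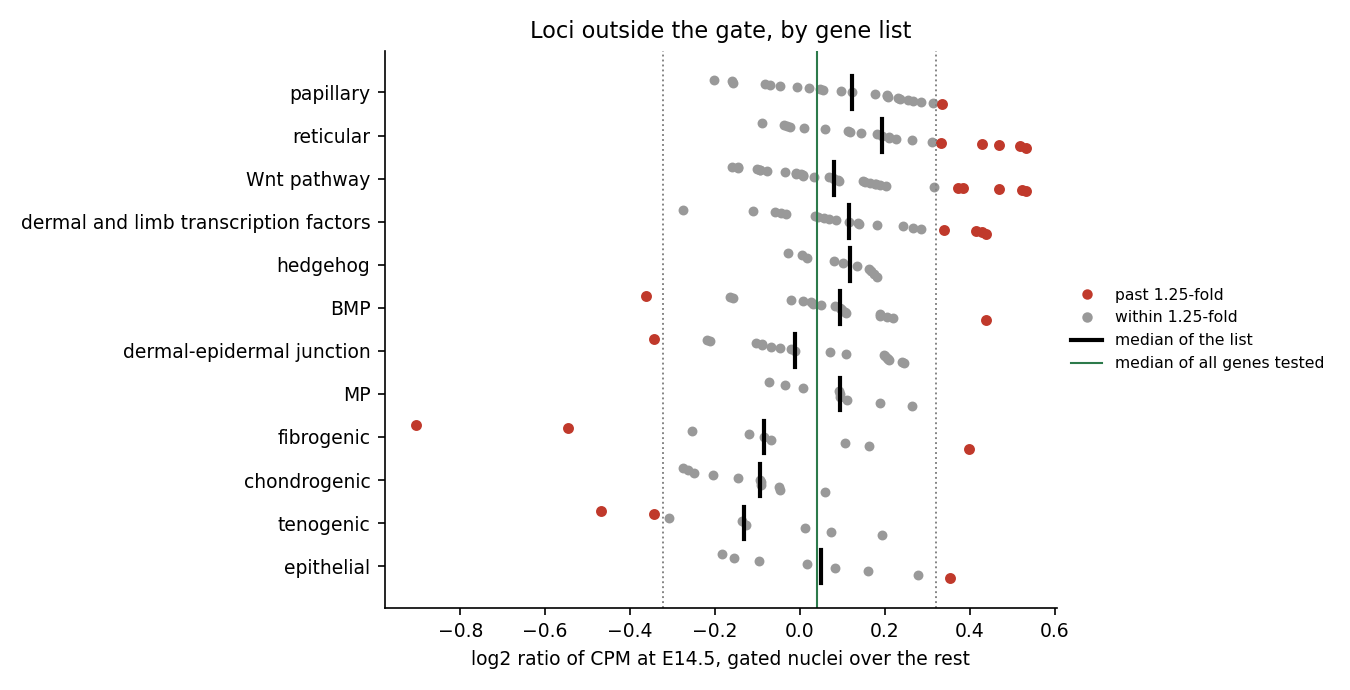
Log2 ratio of CPM at E14.5, gated nuclei over the rest, for the genes of each list (points), with genes past the fold in red, the list median as a black bar, the median of all genes as a green line at 0.04 and the limits of the fold dotted. The reticular list has 5 red points to the right and none to the left, and the tenogenic list 2 to the left.

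Loci of cell types that the sort should have removed, or that a dermal gate could take in, were read as well. Over all genes 1.34% were higher and 1.59% lower, and single genes past the fold do not set such short lists apart. Of the 14 epithelial genes, 8 had at least 20 CPM and 1 was higher, Esrp1, a splicing regulator of epithelia, at 32.04 against 25.1 CPM. Among those under 20 CPM, the keratin gene Krt1 was at 16.9 against 11.8 CPM, a log2 ratio of 0.52 (0.23 to 0.80), Krt14 was at 3.88 and 3.44 CPM, and the whole epithelial list, whatever the level of its genes, summed to 312 CPM in the gated nuclei and 289.9 CPM in the rest. The genes Krt5, Krt15, Csf1r, Laptm5, Tyrobp, Emcn and Myf5 were listed at 0 in both groups, which gives no reading of those loci. Among 6 endothelial genes 1 was lower, Pecam1, -0.38 (-0.61 to -0.15), and of 8 pericyte genes Pdgfrb was higher, 0.34 (0.23 to 0.45), and Abcc9 lower, -0.33 (-0.59 to -0.08). Summed in the same way, the endothelial list was at 308 and 303 CPM, the blood list at 83.8 and 78.2 CPM and the myogenic list at 113 and 107 CPM. No gene with at least 20 CPM of the blood, myogenic, Schwann and melanocyte or perineural lists passed the fold. Under that level the neural crest gene Foxd3 was past it upwards, 0.34 (0.09 to 0.59), and S100b, -0.48 (-0.84 to -0.15), Cldn1, -0.49 (-0.85 to -0.14), Ptprc, -0.35 (-0.69 to -0.03), and the muscle regulators Myog, -0.84 (-1.46 to -0.23), and Myf6, -0.91 (-1.73 to -0.19), were past it downwards. Of 10 cell cycle genes none did, although 9 were above 0 (median 0.18). The part of any of these in the dermal differences was not tested.

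The 15 genes that differed most upwards were led by Gucy2d, a guanylate cyclase gene, at 38.9 CPM in the gated nuclei and 21.2 CPM in the rest, a log2 ratio of 0.88 (0.69 to 1.07). The Hox genes Hoxc6, Hoxc5, Hoxa5, Hoxb3 and Hoxa4, which set position along the body axis, were among them, with Hoxc6 at 57.0 and 32.5 CPM, 0.81 (0.65 to 0.96). The annotated body of Hoxc5 (chr15:102967443-103017429) spans that of Hoxc6 (chr15:102998257-103011881), so these values are not separate. The others were Sp5, Kremen1 and Irx3 (above), Myo3b, an unconventional myosin (0.54), Pkp1, a desmosomal plakophilin (0.54), Slc7a10, an amino acid transporter (0.54), Endou, an endoribonuclease (0.52), Otp, a homeobox factor (0.52), and Gm11111 (0.52). The limit of 20 CPM was set over both groups together. Hoxa5 (19.2 CPM), Otp (19.6) and Gm11111 (19.6) were under it in the rest, so they passed it through the gated nuclei in which they were high.

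The 10 genes that differed most downwards were C1qtnf3 (above), Colq, the collagen tail of acetylcholinesterase (-0.89), Tlr4, a receptor of innate immunity (-0.87), Gm42372 (-0.86), Rgs13, a regulator of G protein signalling (-0.85), Lrrc18 (-0.73), Trpv1, an ion channel (-0.69), Tprg (-0.68), Tnfsf4, a TNF family ligand (-0.68), and Tm4sf1, a tetraspanin-like membrane protein (-0.68). Colq was at 18.2 CPM in the gated nuclei and 33.8 CPM in the rest, and Tlr4 at 12.4 and 22.8 CPM. Most of these genes lay near the level limit of 20 CPM, where the counting intervals are wide, as in Tlr4, -1.19 to -0.55.

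Shares of nuclei were read after each nucleus had been thinned to 4000 fragments, since the gated nuclei were shallower. Twist2 had a fragment in 31.4% (28.6 to 34.3) of the gated nuclei and 25.3% (24.4 to 26.1) of the rest, or 45.6% and 41.4% without thinning. Hoxc6 had one in 17.99% (15.7 to 20.4) and 11.2% (10.6 to 11.8), or 26.8% and 19.8% unthinned. C1qtnf3 went the other way, at 4.22% (3.09 to 5.603) and 7.91% (7.37 to 8.46), or 6.94% and 13.98% unthinned. Most gated nuclei had no fragment at any 1 of these loci at this depth, and the groups overlapped widely.

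Single OCRs over 100 kb from a gate gene differed by more than whole genes. Of 41694 OCRs with at least 5 CPM, 1416 were higher by at least 1.5-fold (3.4%) and 4543 lower (10.9%). Of the higher ones 1335 lay outside promoters, as did 4294 of the lower ones. Of the 10 highest, the 9 described here lay in or nearest to Olfr1441, Adamts16, Cep112, Irx1, Pcsk6, Rxrg, Slc9a9, Kctd16 and Foxo6. The Cep112 OCR printed above was at 27.2 CPM in the gated nuclei and 8.01 CPM in the rest, a log2 ratio of 1.76 (1.52 to 2.002), and the Rxrg OCR at 15.3 and 4.59 CPM, 1.74 (1.41 to 2.06). All 9 ratios were between 1.67 and 1.78. The level limit was set over both groups together, and 6 of the 9 were under 5 CPM in the rest, so these passed it through the gated nuclei in which they were high.

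Some of these OCRs share a neighbourhood with the gate. The Adamts16 and Irx1 OCRs, which lie near each other between those genes on chromosome 13, are 551840 and 553270 bases from the nearest gene, and the Cep112 OCR is on chromosome 11 within 1 Mb of Axin2. The remaining 6 lay over 1 Mb from a gate gene or on a chromosome without one. The lowest 5 lay in or nearest to Slc9a9, Tnp1, Ldb2, Gm527 and Lifr, with log2 ratios from -2.27 to -1.79. The Slc9a9 gene body thus held an OCR among the highest (chr9:95168443-95169103, 1.69) and the lowest of all (chr9:94788221-94789102, -2.27). The second rested on 16 counts in the gated nuclei, and its interval ran from -3.50 to -1.28.

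The central 300 bases of the OCRs outside promoters were searched on both strands for 12 short strings, none of which contains another. The TWIST E-box, CAGATG, was in 49.5% (46.8 to 52.2) of the 1335 higher OCRs, against 29.98% of all 26914 and 28.4% of the 4294 lower ones. The TCF/LEF string, CTTTGAT, was in 8.84% (7.37 to 10.5), 4.37% and 3.31%, and the Iroquois-type string, ACATGT, in 16.9% (14.95 to 19.1), 8.61% and 8.17%. All 3 were thus more frequent in OCRs higher in the gated nuclei, and a homeobox core, TAATTA, was in 11.01%, 7.61% and 7.59%. Of the other strings, an NFI string, TTGGCA, was in 22.5%, 22.9% and 27.0%, and an AP-1 string, TGANTCA, in 11.98%, 11.1% and 11.7%. A SOX string, ACAATGG, was in 4.04%, 3.39% and 4.22%, a RUNX string, TGTGGTT, in 9.29%, 7.68% and 8.99%, and a TEAD string, ACATTCC, in 9.14%, 7.45% and 7.78%. A HOX-PBX string, TGATTNAT, was in 7.34%, 5.26% and 5.87%. An EBF string, CCCNNGGGA, was in 5.02%, 6.39% and 7.59%, and an AP-2 string, GCCNNNGGC, in 6.44%, 10.3% and 7.94%. In promoter OCRs the TCF/LEF string was in 1.23% (0.03 to 6.69) of the 81 higher ones, 1.60% of all and 2.01% of the lower ones. The E-box was there in 43.2%, 11.97% and 18.9%, with mean G and C of 51.5%, 63.4% and 49.1%.

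The higher OCRs had a mean of 46.7% G and C, all OCRs 48.5% and the lower ones 46.2%. Within OCRs of 45 to 55% G and C the E-box was in 50% of the higher ones, 30.8% of all and 28.7% of the lower ones. The TCF/LEF string was there in 8.77%, 4.26% and 2.47%, and the Iroquois-type string in 16.7%, 8.34% and 7.19%. Among 32851 RefSeq promoters the E-box was in 14.4% and the TCF/LEF string, which the Sp5 promoter above holds, in 3.21%. The promoter sequences, like that of Sp5, were shorter than the OCR sequences, so these shares are not matched to those of the OCRs in length. A match of letters is a description and does not show that a factor was bound.

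**Figure D3:**
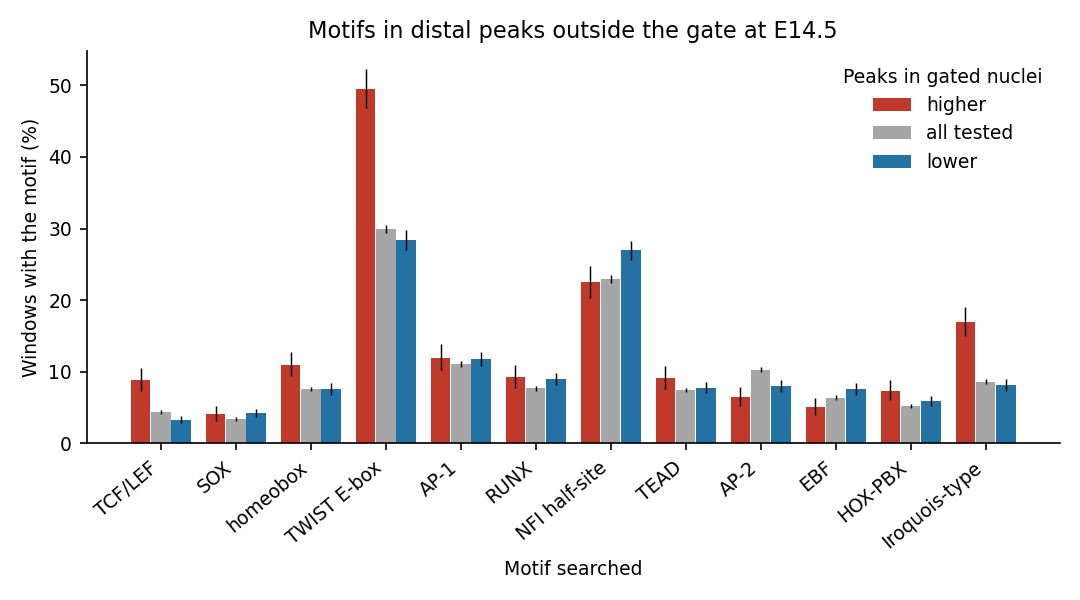
Share (%) of OCRs outside promoters whose central 300 bases hold each of 12 strings, for OCRs higher in the gated nuclei (n = 1335), all OCRs read (n = 26914) and OCRs lower (n = 4294), with exact 95% intervals. The TWIST E-box is in 49.5% of the higher OCRs and 29.98% of all.

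The differences at E14.5 were read in the same gate at E16.5, in other embryos and another library. There 923 of 12331 genes were higher (7.49%) and 910 lower (7.38%). Of the 173 genes higher at E14.5, 147 could be read at E16.5. Of these 142 were above 0 (96.6%, against 56.0% of the 11928 genes read at both stages), 103 were past the fold upwards (70.1%, against 7.13%) and 0 past it downwards. Of the 206 lower genes, 178 could be read and 133 were lower again (74.7%, against 6.60%), while 2 were higher. Across those 11928 genes the ratios of the 2 libraries had a Pearson r of 0.55, where genes are not independent replicates. Both gates used the same 9 loci.

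Among named genes, Twist2 had a log2 ratio of 0.68 (0.63 to 0.74) in the E16.5 gate, Sp5 0.78 (0.68 to 0.89), Tcf7 0.57 (0.48 to 0.66) and Hoxc6 0.87 (0.80 to 0.93). C1qtnf3 was at -1.31 (-1.50 to -1.13) and Fap at -1.03 (-1.15 to -0.91). Lrrc18 went the other way between the stages, from -0.73 (-1.02 to -0.45) to 0.27 (0.18 to 0.37), as did Dpt, from 0.55 (0.28 to 0.81) to -0.37 (-0.49 to -0.26), and Hoxa4 was at 0.08 (-0.06 to 0.22) at E16.5. In the E16.5 gate 18 of 21 reticular genes were higher (median 0.51), 11 of 21 papillary genes were higher (median 0.32) and 8 of 13 fibrogenic genes were lower (median -0.36). The median of the Wnt pathway list was 0.08 at both stages, and that of the perineural list was lower at E16.5, at 0.08. A larger number of counts per nucleus was present in that library, with a median depth of 27470 in its gated nuclei, and the part of depth was not tested.

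**Figure D4:**
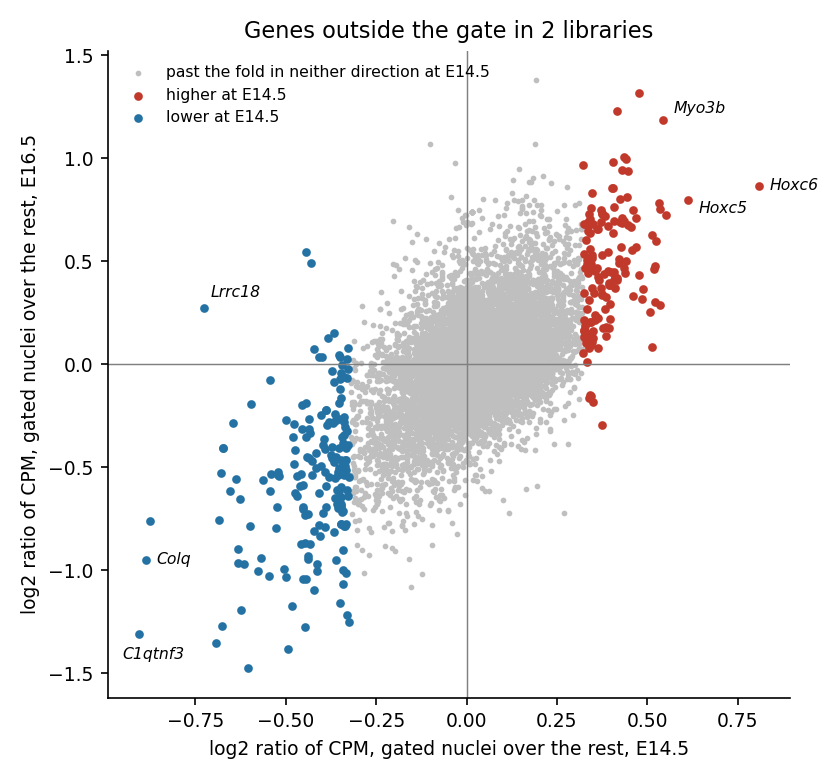
Log2 ratio of CPM, gated nuclei over the rest, at E14.5 (horizontal) and E16.5 (vertical) for 11928 genes read at both stages (points). Genes past the fold at E14.5 are red (higher) or blue (lower), and 142 of the 147 red points lie above 0 at E16.5, against 56.0% of all points.

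At E12.5 the same gate gave 323 genes higher (2.59%) and 434 lower (3.49%) of 12448. Of the genes higher at E14.5, 151 could be read and 93 were above 0 (61.6%, against 49.8% of the 12043 genes read at both stages), with a median of 0.04. Of them 9 were past the fold upwards (5.96%, against 2.52%) and 6 downwards (3.97%, against 3.31%). Of the lower ones 175 could be read and 14 were lower again (8%, against 3.31%), while 1 was higher. Across 12043 genes read at both stages r was 0.08. Twist2 was at 0.06 (-0.11 to 0.23), Sp5 at -0.06 (-0.39 to 0.24) and Hoxc6 at 0.36 (0.16 to 0.56) in the E12.5 gate. Of 23 papillary genes none was higher and of 20 reticular genes 2 were. The 334 gated nuclei there give wider intervals, and the difference from E14.5 was not tested.

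Of the 1335 OCRs outside promoters that were higher at E14.5, 1218 had a value at E16.5 and 1183 of these were above 0 (97.1%, against 41.2% of all OCRs outside promoters), with a median log2 ratio of 1.11. At E12.5 883 had a value and 623 were above 0 (70.6%, against 50.1%), with a median of 0.19. The Cep112 OCR was at 2.24 at E16.5 and 0.78 at E12.5, and the Rxrg OCR at 1.86 and 0.17.

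The E14.5 nuclei past the depth minimum were also grouped into 7 clusters. The grouping used accessibility outside 1 Mb of any gate gene, so the gate loci played no part in it. Clusters were then numbered by their share of gated nuclei, highest first. Gated nuclei made up 26.5% (24.1 to 28.9) of cluster 1 (349 of 1319 nuclei) and from 4.54% to 12.4% of each of the other 6. With 10 clusters in place of 7, the cluster with the highest share was at 26.4%, and a second one reached 21.4% (18.5 to 24.5, 164 of 767 nuclei). Of the 7, cluster 1 held 32.7% of all gated nuclei, so most gated nuclei lay elsewhere. All 9 gate loci were more accessible in cluster 1 than in the other nuclei, with every interval above 0, from Col7a1, at 20.03 against 4.43 CPM, a log2 ratio of 2.18 (1.91 to 2.44), and Rspo1, 1.37 (1.204 to 1.53), to Crabp1, 0.38 (0.24 to 0.53), and Nkd2, 0.38 (0.26 to 0.49). In none of the other clusters were all 9 higher. Cluster 1 was picked for its share of nuclei that had been chosen on these loci, so its height there is a description.

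Cluster 1 was given no cell type name. Its median log2 ratio was 0.43 for the reticular list, 0.36 for the papillary list and -0.29 for both the chondrogenic and tenogenic lists. That of the Wnt pathway list was 0.04, against 0.05 in cluster 2, and that of the fibrogenic list -0.10. Its leading genes included Gucy2d, Myo3b, Hoxc6 and Cadps, of which the first, the second and the third were also among the 15 highest genes of the gate. The 9 OCRs named above were at log2 ratios from 3.51 to 5.10 in cluster 1, and the Rxrg OCR was at 32.7 CPM there and 1.69 CPM in the other nuclei. The Adamts16, Cep112 and Irx1 OCRs, which lie within 1 Mb of a gate gene and so were not used in the clustering, were at 4.06, 3.89 and 3.51. The clusters were made from the other 6 OCRs among others. All 9 were picked for their height in the gated nuclei, of which cluster 1 holds the largest part, so the values of all 9 are a description.

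Within cluster 1 the 349 gated nuclei differed from the 970 others by less. The reticular median was 0.10 with 17 of 21 genes above 0, and the papillary median was 0.02 with 13 of 23 above 0. Within the other clusters the reticular median ran from -0.02 to 0.06. The differences at the dermal lists were thus smaller within a cluster than over all nuclei. Some single genes had ratios below 0 in some clusters. No counting intervals were computed for these ratios, and 1 cluster held only 50 gated nuclei. A change of sign between clusters is therefore not shown. Sp5 was at 0.50 in cluster 1 and 0.35 in cluster 5, and from -0.29 to -0.04 in the others. Twist2 was at -0.20 in cluster 4 and -0.02 in cluster 3, and above 0 in the others. Tcf7 was above 0 in every cluster, from 0.01 to 0.59.

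**Figure D5:**
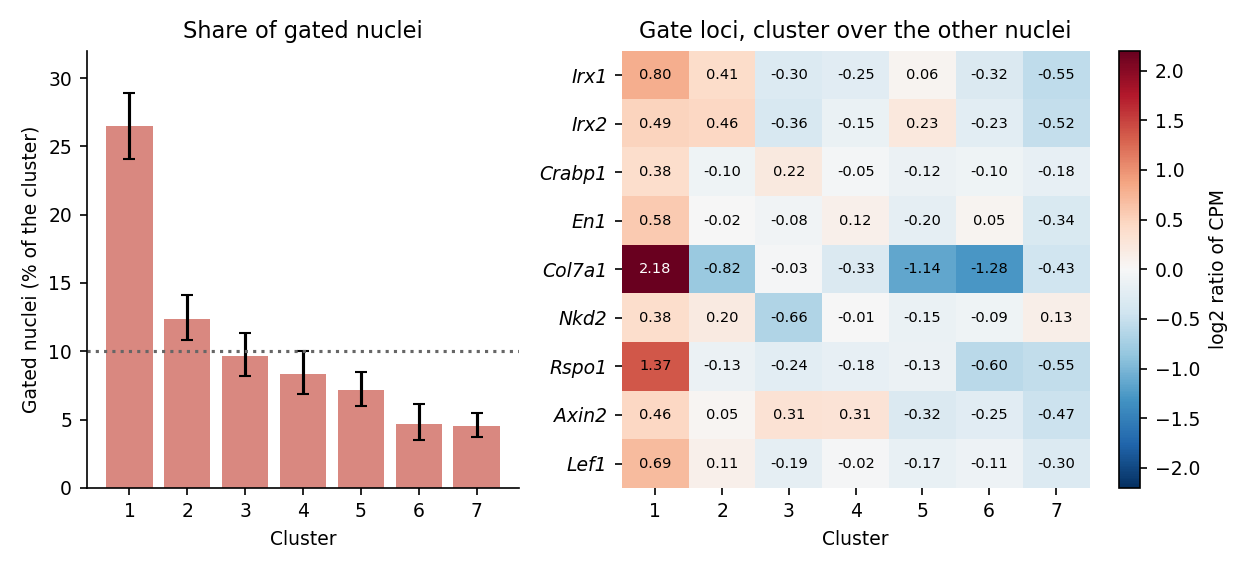
Left, share (%) of the nuclei in each of 7 clusters that were gated, with exact 95% intervals and a dotted line at 10%. Right, log2 ratio of CPM at each gate locus in a cluster over the other nuclei. Clusters are numbered by their share of gated nuclei. Cluster 1 has a share of 26.5% and is above 0 at all 9 loci, with Col7a1 at 2.18, which is a description.

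The label dermal fibrogenic was also read against gates built from other lists. For this the gate itself and each list gate took the highest-scoring 10% within bins of depth, 1070 nuclei each. A gate over the reticular list held 20.1% of the nuclei of the binned gate, a gate over the Wnt pathway list 15.7% and a gate over the papillary list 14.8%, where 10% follows from the size of the gates alone. Gates over the tenogenic (10.3%), fibrogenic (9.72%) and chondrogenic (7.38%) lists held fewer. These last 3 also rested on fewer peaks (44, 71 and 104) than the reticular, Wnt pathway and papillary lists (138, 238 and 220). The reticular and Wnt pathway lists share Sp5 and Tcf7. The part of list size in these shares was not tested. Without bins of depth the shares were 20.1%, 16.5% and 15.9% for the first 3 lists, and 10.7%, 10.5% and 7.69% for the last 3.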

How the data were processed

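The authors measured chromatin accessibility with the 10x Chromium single-cell ATAC assay, with 1 library at each of 3 stages. The deposited values are counts, namely cut sites of the transposase in each nucleus at each peak, not normalised, on mm10. The file headers give Cell Ranger ATAC 1.0.1 for E12.5 and E14.5 and 1.2.0 for E16.5, while the submitters' processing notes give 1.1.0. Peaks had been called library by library. The libraries shared 213 (E12.5 and E14.5), 151 (E12.5 and E16.5) and 401 (E14.5 and E16.5) barcode sequences.

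The E14.5 library held 204289151 counts, from 2132 to 58332 per nucleus. Genes were taken from GENCODE vM21, and a gene was the sum of its peaks over the body and 2 kb upstream. Level limits were 20 CPM for genes and 5 CPM for peaks. Ratios carry exact binomial (Clopper-Pearson) intervals on fragment equivalents, counts divided by 2. Promoters ran from 1000 bp before to 100 bp after a start. Clusters were made by k-means on 30 components of latent semantic indexing, without 1 component that followed depth. No doublet caller was run, and leaving out the deepest 5% was an alternative. Python 3.11.15, numpy 2.4.6, scipy 1.17.1, scikit-learn 1.9.0 and pyfaidx 0.9.0.4 were used, and scripts were tested on simulated data.

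The members and gene lists were chosen with earlier results of these data known. The text names the 9 gate genes, genes of the lists past the fold, and the highest or lowest gene of some lists. It also names the 15 highest and 10 lowest genes outside the gate, and the 10 highest and 5 lowest peaks. Some lists are given by counts or medians only, and a list of limb position genes was read but is not described as a list. Of the 10 highest peaks 1 is not reported here, nor is 1 leading gene of cluster 1. Lrig1, Wnt11, Cyp26b1, Hic1, Hox genes and marker genes under the level limit were named beside these, after their values had been seen. The comparison with nuclei matched in promoter share, the gates with and without chromosome 13, the Hox summary and the strings were added after the data had been seen.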

Additional observations from a re-analysis of the deposited data

How the results depend on the processing

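The counts set side by side here are genes higher and lower in the gated nuclei (173 and 206) and papillary, reticular and Wnt pathway genes higher (1, 5 and 5). The highest-scoring 5% gave 526 higher, 486 lower and 5 papillary, and the highest-scoring 20% gave 55, 69, 2 reticular and 2 Wnt. Thinning before scoring gave 57, 83, 2 papillary, 3 reticular and 2 Wnt. A call at 1.5-fold left 4 higher and 26 lower and 0 of each list, and no level limit gave 547 and 828. Centring on the median gave 99, 316 and 0 papillary. Promoter peaks only in the readout gave 69 lower, 2 papillary and 3 Wnt. The gate without Axin2 gave 128 lower, 2 papillary and 2 Wnt. The gate of the 3 loci on chromosome 13 gave 46, 59, 1 reticular and 0 Wnt, and the gate without them 2 papillary and 3 reticular. Nuclei matched in promoter share gave 2 papillary and 3 Wnt. The papillary count also moved to 0 with a depth minimum of 4000 or without Irx2 or Rspo1, to 2 without Col7a1 or Nkd2, with a gate over promoter peaks or with a binarised readout, and to 4 with scaled loci. The causes were not tested. Over 26 settings the values of 31 named genes gave 799 comparisons, of which 690 moved by less than the counting interval, 109 by more, and 0 turned in sign. The 31 genes were picked for the size of their ratios in these same nuclei, and the settings reuse the library and many of the members. That no sign turned is therefore a description and no support for the ratios. The readings within clusters are not among these settings. With 1 library per stage no replicate could be left out. No paired analysis was possible because each stage had 1 library. Depth limits the reading of single nuclei, with a median of 14 gate counts each.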

Other observations

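The Hox clusters were summarised after their values had been seen. Of 10 genes of paralogue groups 1 to 6 with at least 20 CPM, 9 were higher in the gated nuclei (median log2 ratio 0.51), and 0 of 5 of groups 8 to 10 were (median 0.06, from -0.12 to 0.24). Those 5 were HoxA and HoxD genes, while the HoxB and HoxC genes of groups 8 to 10, all under 20 CPM, were each past the fold, Hoxb8 and Hoxc8 at 0.76, Hoxc9 at 0.57, Hoxc10 at 0.54 and Hoxb9 at 0.36. The contrast between paralogue groups was thus that of the HoxA and HoxD genes. With no level limit, those of groups 1 to 6 ran from 0.31 to 0.84. Of the 9 higher genes, Hoxa5 was at 19.2 CPM in the rest and passed the limit through the gated nuclei. In groups 11 to 13, Hoxa13 was past the fold, at 38.4 against 29.7 CPM, a log2 ratio of 0.37 (0.19 to 0.56), as were Hoxb13, 0.49 (0.16 to 0.81), and Hoxc13, 0.37 (0.10 to 0.63), under 20 CPM. By cluster and with no level limit, 10 of 10 HoxB genes were above 0 (median 0.50), as were 8 of 9 HoxC genes (0.57), 9 of 11 HoxA genes (0.37) and 9 of 9 HoxD genes (0.24). At E16.5 the medians were 0.76, 0.80, 0.41 and 0.14. At E12.5 they were 0.16, 0.22, -0.23 and -0.09, with 1 of 11 HoxA genes and 3 of 9 HoxD genes above 0. Neighbouring Hox genes share peaks and so are not separate readings. Against nuclei matched in promoter share, which took the all-gene median to -0.00, 9 of 11 genes of groups 1 to 6 were past the fold, with a median of 0.39, and 0 of 6 genes of groups 9 to 11, with a median of 0.04. That reading took groups 9 to 11 in place of groups 8 to 10, so it does not repeat the contrast above with the same genes.

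At E12.5 the whole of chromosome 13, which carries Irx1, Irx2 and Nkd2, was higher in the gated nuclei, at a log2 ratio of 0.08 (0.07 to 0.09) even over 20 Mb from these loci, against -0.02 (-0.02 to -0.01) at E14.5. The log2 ratios of the other autosomes at E12.5 ran from -0.06 to 0.12, the highest being chromosome 3, which carries Lef1. The part of this in the E12.5 differences was not tested.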
